A study of Mus musculus with 12 samples.

Results

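The genes described here carry the synthesis, transport and breakdown of the catecholamines dopamine and noradrenaline. They were chosen by name as 9 of the 55385 genes in the expression table, namely Th, Ddc, Dbh, Slc6a3, Slc6a2, Slc18a2, Maoa, Maob and Nr4a2. Each name matched a single gene, and all 9 members had an FPKM (fragments per kilobase of transcript, relative to all mapped fragments of the library) that averaged 0.1 or more over the 12 libraries, the filter that 21393 genes passed. Whole brains of male wild-type C57BL/6J mice, 8 weeks old when bought, were perfused with saline and gave 1 poly(A) library each, 3 libraries per group. C_W mice received water by gavage without stress, and C_O mice received krill oil (200 mg/kg per day for 5 weeks) without stress. MS_W mice received water and MS_O mice received krill oil, and both were exposed to chronic unpredictable mild stress (CUMS) for 4 weeks. The study kept 8 mice per group and sequenced 3 of them, and the control for krill oil was water rather than another oil. The question was whether CUMS, krill oil or the combination of both altered the mRNA of these genes in the brain. Libraries are named by group and mouse number, such as MS_W95.

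Catecholamines are made from tyrosine by cytosolic enzymes, loaded into vesicles by a vesicular carrier, taken back into the neuron by plasma membrane transporters and broken down by enzymes that include the monoamine oxidases. In the mouse brain the neurons that make them are few and lie in separate places: dopamine neurons in the ventral midbrain, the hypothalamus and the olfactory bulb, and noradrenaline neurons in the brainstem, with the locus coeruleus as their main group. The tissue was described as whole brain and was sequenced in bulk. Fewer cells of a type, less RNA per cell and a different share of brain regions cannot be told apart in any value below.

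The stretches before 3 of the start sites are shown, because the members differ there in the motifs they hold. They were taken from RefSeq promoters on build GRCm38.p6, 7 of the 9 members had an entry, and Slc6a2 and Maob had none. The 250 bases before each start site were searched on both strands for the cAMP response element TGACGTCA, its shorter core TGACG and AAAGGTCA, the site known to be bound by single Nr4a2 molecules. Capitals mark a match, and a match is a description of letters only. Th is shown because it varied most among the abundant members, Ddc because its MS_W and MS_O values did not overlap, and Slc6a3 because the 2 brains with the most Th also had the most of it.
Th, chr7:142900015-142900245, minus strand, from base -250 to base -20: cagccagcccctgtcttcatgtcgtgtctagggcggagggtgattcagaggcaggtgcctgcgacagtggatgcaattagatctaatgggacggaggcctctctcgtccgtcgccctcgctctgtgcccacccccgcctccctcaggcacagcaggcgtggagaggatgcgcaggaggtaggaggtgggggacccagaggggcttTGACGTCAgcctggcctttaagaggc
Ddc, chr11:11898145-11898394, minus strand, from base -250 to base -1: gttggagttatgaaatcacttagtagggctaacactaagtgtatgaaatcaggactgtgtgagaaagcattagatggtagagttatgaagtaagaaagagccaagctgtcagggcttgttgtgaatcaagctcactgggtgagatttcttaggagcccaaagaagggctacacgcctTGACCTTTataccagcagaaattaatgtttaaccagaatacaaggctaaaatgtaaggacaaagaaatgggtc
Slc6a3, chr13:73536497-73536746, plus strand, from base -250 to base -1: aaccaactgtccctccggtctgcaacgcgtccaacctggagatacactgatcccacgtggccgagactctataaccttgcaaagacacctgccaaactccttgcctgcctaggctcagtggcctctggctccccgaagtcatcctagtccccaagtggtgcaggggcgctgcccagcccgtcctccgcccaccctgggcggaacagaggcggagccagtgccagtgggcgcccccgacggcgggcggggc
The Th stretch stops 19 bases short of its start site because those bases lie in an annotated exon. It lies inside the annotated gene, between exons, and holds the complete TGACGTCA from base -45 to base -38, in which the core occurs 2 times, on opposite strands and overlapping. The Ddc stretch lies just before the annotated gene and holds the Nr4a2 site as its reverse complement, TGACCTTT, from base -73 to base -66. A further promoter entry of Ddc, chr11:11890409-11890658, holds none of the 3 motifs. The Slc6a3 stretch holds none of the 3 motifs. Of 32851 mouse promoters of the same length, 1.55% held TGACGTCA, 1.34% held AAAGGTCA and 17.8% held TGACG. The core also occurred 4 times before Nr4a2 and once each before Dbh and Maoa. All 250 bases searched for Dbh lie in annotated exons of Dbh.

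By median FPKM over the 12 libraries, which allows levels to be compared between genes, the order was Th (10.8), Maob (8.94), Maoa (8.19), Nr4a2 (4.79), Ddc (1.58), Slc18a2 (1.01), Dbh (0.292), Slc6a3 (0.173) and Slc6a2 (listed at 0.0001, the value given to a gene without signal). Neighbours in this order were not always apart. Th exceeded Maob in 7 of 12 libraries, Maob exceeded Maoa in 8 and Dbh exceeded Slc6a3 in 8, so these pairs traded places between brains. Ddc was above Slc18a2 in 12 of 12 libraries, and Slc18a2 was above Dbh in 11. The plot of FPKM by group shows the 9 members side by side.

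**Figure D1:**
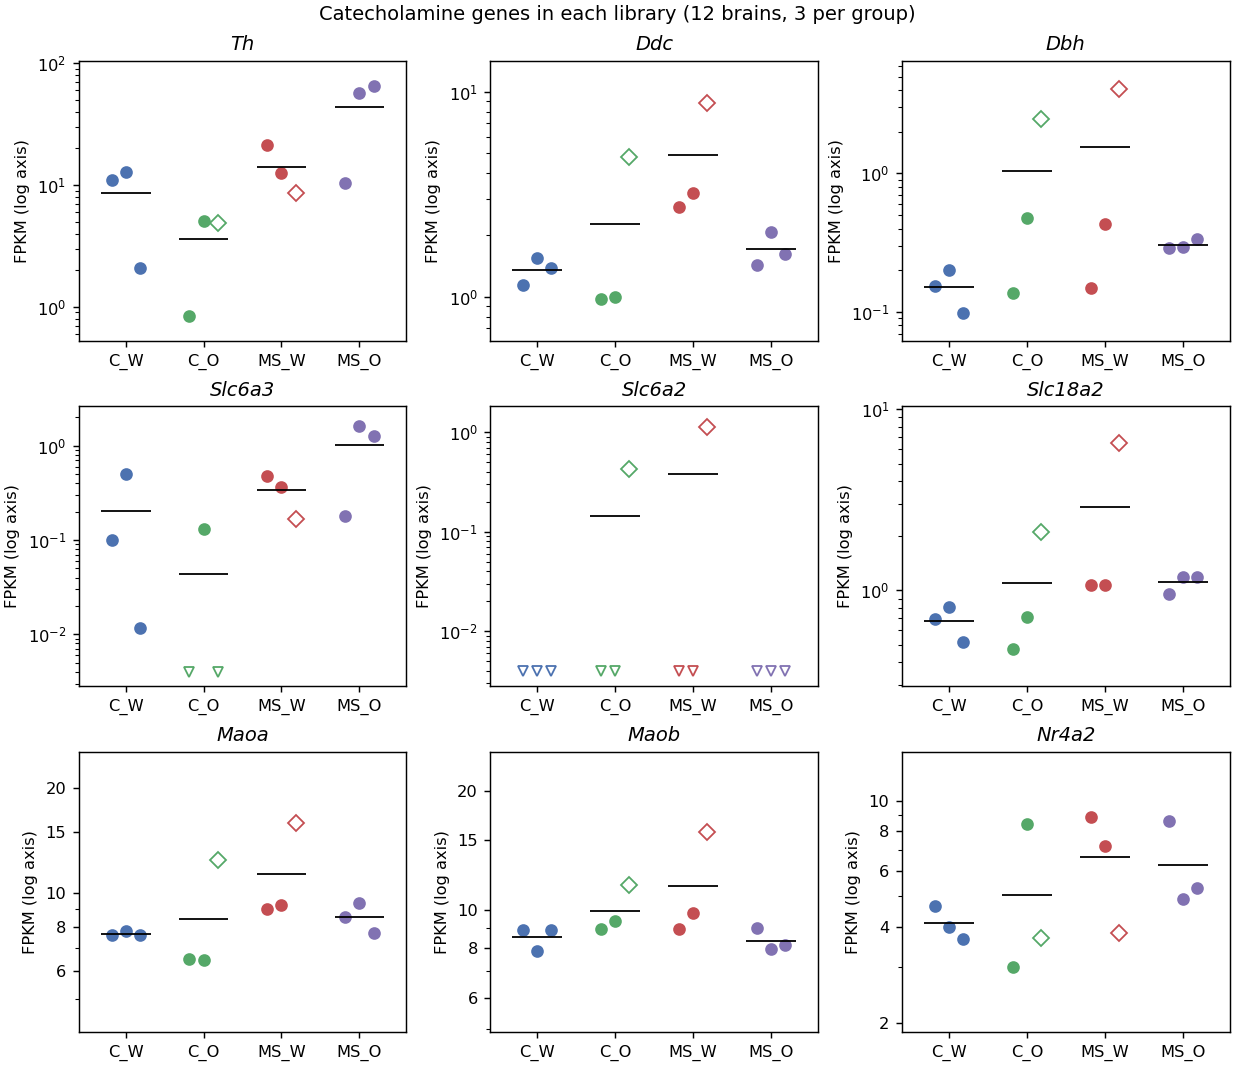
FPKM (log axis) of the 9 catecholamine genes in each library, by group (C_W, C_O, MS_W and MS_O, n = 3 mice each). Horizontal bars are group means, diamonds are libraries C_O72 and MS_W95, and open triangles at the bottom stand for values listed at 0.0001. In Ddc, Dbh, Slc6a2, Slc18a2, Maoa and Maob the diamonds lie above all other libraries, while in Th the highest points are MS_O46 (56.6) and MS_O78 (64.9).

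A property of the whole series has to stand before the results. Estimated counts summed to between 50912906 and 75678721 per library, and every C_W library (at least 69768244) was deeper than every MS_W library (at most 61608502). C_O72 and MS_W95 differed from the remaining 10 libraries in regional genes. The summed FPKM of 11 hindbrain genes (Hox genes and the glycine transporter gene Slc6a5) was 84.5 in C_O72 and 31.2 in MS_W95 and at most 0.0970 in the other 10. Summed FPKM of 5 cortex genes was 31.5 and 44.7 in these libraries and between 127 and 376 in the others. The comparisons were also fitted with these 2 libraries left out ("the 10 libraries"), which leaves 2 brains each in C_O and MS_W.

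Th encodes tyrosine hydroxylase, the rate-limiting enzyme of catecholamine synthesis (ENSMUSG00000000214, chromosome 7, 142892752 to 142931128). Its FPKM was 11.1, 12.8 and 2.09 in C_W1, C_W64 and C_W70. In C_O15, C_O30 and C_O72 it was 0.841, 5.07 and 4.83. The groups without stress overlapped, and the highest C_O value lay below 2 of the 3 C_W values. Under CUMS, the FPKM of Th was 21.2, 12.5 and 8.66 in MS_W31, MS_W75 and MS_W95. It was 10.4, 56.6 and 64.9 in MS_O13, MS_O46 and MS_O78. Thus 2 MS_O brains exceeded all others, the third lay within the MS_W range, and the span from the lowest to the highest library was 77.2-fold. The mean was 8.65 ± 5.74 (SD, n = 3) for C_W and 3.58 ± 2.37 for C_O, and 14.1 ± 6.42 for MS_W and 44.0 ± 29.3 for MS_O.

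Ddc encodes aromatic L-amino acid decarboxylase, which converts L-DOPA to dopamine and also makes serotonin (ENSMUSG00000020182, chromosome 11, 11814101 to 11898144). Its FPKM was 1.14, 1.55 and 1.37 in C_W1, C_W64 and C_W70, and 0.973, 0.991 and 4.81 in C_O15, C_O30 and C_O72. In MS_W31, MS_W75 and MS_W95 it was 2.73, 3.19 and 8.81. In MS_O13, MS_O46 and MS_O78 it was 1.43, 2.08 and 1.61. All 3 MS_W brains lay above all C_W and all MS_O brains. Ddc did not follow Th from brain to brain: the ratio of Th to Ddc in FPKM was 27.3 and 40.2 in MS_O46 and MS_O78, and 1.00 and 0.983 in C_O72 and MS_W95.

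Dbh encodes dopamine beta-hydroxylase, which makes noradrenaline from dopamine and marks noradrenergic and adrenergic neurons (ENSMUSG00000000889, chromosome 2, 27165233 to 27183200). Its FPKM was low in 10 libraries, from 0.0990 to 0.475, and was 2.49 in C_O72 and 4.04 in MS_W95. These values were 10.1 and 16.4 times the median of the 10. In the C_W group it was 0.155, 0.203 and 0.0990, in MS_O it was 0.290, 0.294 and 0.336, and the other values were 0.138 in C_O15, 0.475 in C_O30, 0.150 in MS_W31 and 0.430 in MS_W75. All MS_O values exceeded all C_W values. These groups differ in both stress and oil, and the pair was not tested. The share of all tested genes with MS_O above C_W in this way was not computed. For MS_W above C_W that share was 16.3%.

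The plasma membrane transporters of dopamine and noradrenaline peaked in different brains. Slc6a3 encodes the dopamine transporter, which returns dopamine to the neuron (ENSMUSG00000021609, chromosome 13, 73536747 to 73578672). Its FPKM was 0.101, 0.50 and 0.0116 in C_W1, C_W64 and C_W70, and 0.130 in C_O30, while it was listed at 0.0001 in C_O15 and C_O72. In MS_W31, MS_W75 and MS_W95 it was 0.474, 0.369 and 0.167, and in MS_O13, MS_O46 and MS_O78 it was 0.178, 1.63 and 1.27. The 2 brains with the most Th thus also had the most Slc6a3. Over the other libraries the 2 genes had a similar but not identical order. C_O15, C_W70 and C_O72 were lowest for both, and MS_W75, C_W64 and MS_W31 were the highest of these for both. C_W64 had less Th than MS_W31 (12.8 against 21.2) but more Slc6a3. C_O72, with a Th of 4.83, had Slc6a3 listed at 0.0001.

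Slc6a2 encodes the noradrenaline transporter (ENSMUSG00000055368, chromosome 8, 92960079 to 93001667). It was listed at 0.0001 in 10 libraries and had an FPKM of 0.428 in C_O72 and 1.13 in MS_W95. Slc18a2 encodes the vesicular monoamine transporter VMAT2, which is shared by all monoamine neurons (ENSMUSG00000025094, chromosome 19, 59260896 to 59296012). Exons of Gm29261 on the opposite strand overlap those of Slc18a2. The FPKM of Slc18a2 was 0.696, 0.814 and 0.516 in the C_W group, 0.472, 0.713 and 2.10 in C_O15, C_O30 and C_O72, 1.08, 1.07 and 6.46 in MS_W31, MS_W75 and MS_W95, and 0.950, 1.19 and 1.18 in the MS_O group. All CUMS brains lay above all C_W brains, and MS_W95 was 7.33 times the median of the 10 libraries. MS_O and C_W differ in both stress and oil. That pair was not tested, and its share of non-overlapping genes among all tested genes was not computed.

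Maoa and Maob encode the 2 monoamine oxidases of the outer mitochondrial membrane, which lie next to each other on chromosome X (ENSMUSG00000025037, 16619698 to 16687818, and ENSMUSG00000040147, 16709282 to 16817366). They were the steadiest members, with FPKM spans of 2.45-fold for Maoa and 1.996-fold for Maob over the 12 libraries and of 1.45-fold and 1.25-fold over the 10. Maoa was 7.61, 7.81 and 7.59 in the C_W group, 6.51, 6.45 and 12.4 in C_O15, C_O30 and C_O72, 9.04, 9.27 and 15.8 in MS_W31, MS_W75 and MS_W95, and 8.57, 9.38 and 7.71 in the MS_O group. All MS_W brains lay above all C_W brains for Maoa, while C_O15 and C_O30 lay below and C_O72 above them. Maob was 8.91, 7.87 and 8.87 in the C_W group, 8.94, 9.40 and 11.5 in C_O15, C_O30 and C_O72, 8.93, 9.82 and 15.7 in MS_W31, MS_W75 and MS_W95, and 8.98, 7.96 and 8.15 in the MS_O group. The margin between MS_W and C_W was thin for Maob, since MS_W31 exceeded C_W1 by less than the spread within either group. The FPKM ratio of Maoa to Maob ran from 0.687 in C_O30 to 1.18 in MS_O46.

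Nr4a2 encodes Nurr1, a nuclear receptor required for midbrain dopamine neurons and also expressed in cortex and claustrum (ENSMUSG00000026826, chromosome 2, 57106830 to 57124003). Its FPKM was 4.67, 4.01 and 3.67 in the C_W group and 3.00, 8.43 and 3.70 in C_O15, C_O30 and C_O72. It was 8.89, 7.21 and 3.83 in MS_W31, MS_W75 and MS_W95, and 8.63, 4.91 and 5.32 in MS_O13, MS_O46 and MS_O78. All MS_O brains exceeded all C_W brains, but these groups differ in both stress and oil. The pair was not tested, and the share of all tested genes that did the same was not computed. C_O72 and MS_W95 were not high for this gene, at 0.723 and 0.749 times the median of the 10.

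The effect of CUMS on water was assessed by comparing the MS_W and C_W groups. Ddc had 3.63 times the mean FPKM of C_W in MS_W and a log2 fold change (log2FC, the difference between group means of log2(FPKM + 1)) of 1.19 (SE 0.436, 95% interval 0.22 to 2.16), and its adjusted p was 0.396 in limma. The log2FC was 0.93 (SE 0.444, adjusted p = 0.489 in limma) for Slc18a2, 0.47 (SE 0.246, adjusted p = 0.525) for Maoa and 0.35 (SE 0.179, adjusted p = 0.516) for Maob. The 95% intervals of these 3 genes included 0. The log2FC was 0.83 (SE 0.781, limma adjusted p = 0.693) for Th, 0.81 for Dbh, 0.52 for Nr4a2 and 0.17 for Slc6a3. Several of these values depended on 1 library. Without MS_W95 the log2FC was 0.31 for Slc18a2, 0.23 for Maoa, 0.12 for Maob, 0.16 for Dbh and 0.82 for Nr4a2. Without MS_W31 it was 0.31 for Nr4a2, 0.51 for Th and 0.09 for Slc6a3, and without C_W70 it was 0.14 for Th and 0.05 for Slc6a3. None of the 9 members passed an adjusted p of 0.05 in limma, where 0.00467% of all tested genes did, and 1 member had an unadjusted p under 0.05, against 10.5% of genes. EdgeR and DESeq2 on the estimated counts also called 0 members after adjustment, with 3 at an unadjusted p under 0.05 in each, against 9.37% of all tested genes in edgeR and 11.6% in DESeq2.

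By the criteria of the study for differentially expressed genes (an unadjusted p under 0.05 and a ratio of mean FPKM above 2-fold), 1 of 9 members was called in this comparison, Ddc, against 4.59% of all tested genes. The study took its p from Ballgown, whereas here it came from limma, or from edgeR or DESeq2 where named. Meeting the criteria here therefore does not mean that the study listed the gene. That call rested on single libraries, since no member met the criteria without C_W1 or without MS_W95, Ddc and Slc18a2 met them without MS_W75, and Ddc, Dbh and Slc18a2 met them without MS_W31. Without MS_W95 the log2FC of Ddc was 0.75. The MS_W values lay above all C_W values for Ddc, Slc18a2, Maoa and Maob, 4 of 9 members, and 16.3% of all tested genes did the same. The median log2FC was 0.52 for the members and 0.06 for all tested genes. In the 10 libraries, Ddc had 2.19 times the mean FPKM of C_W and a log2FC of 0.75 (SE 0.130, adjusted p = 0.0393 in limma), and it was the member called, when 1.15% of all tested genes passed. The adjusted p of Ddc ran from 0.0393 to 0.738 over all alternatives. The MS_W brains of the 10 lay above all C_W brains for 5 of 9 members, with Nr4a2 as the fifth, against 25.2% of all tested genes.

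**Figure D2:**
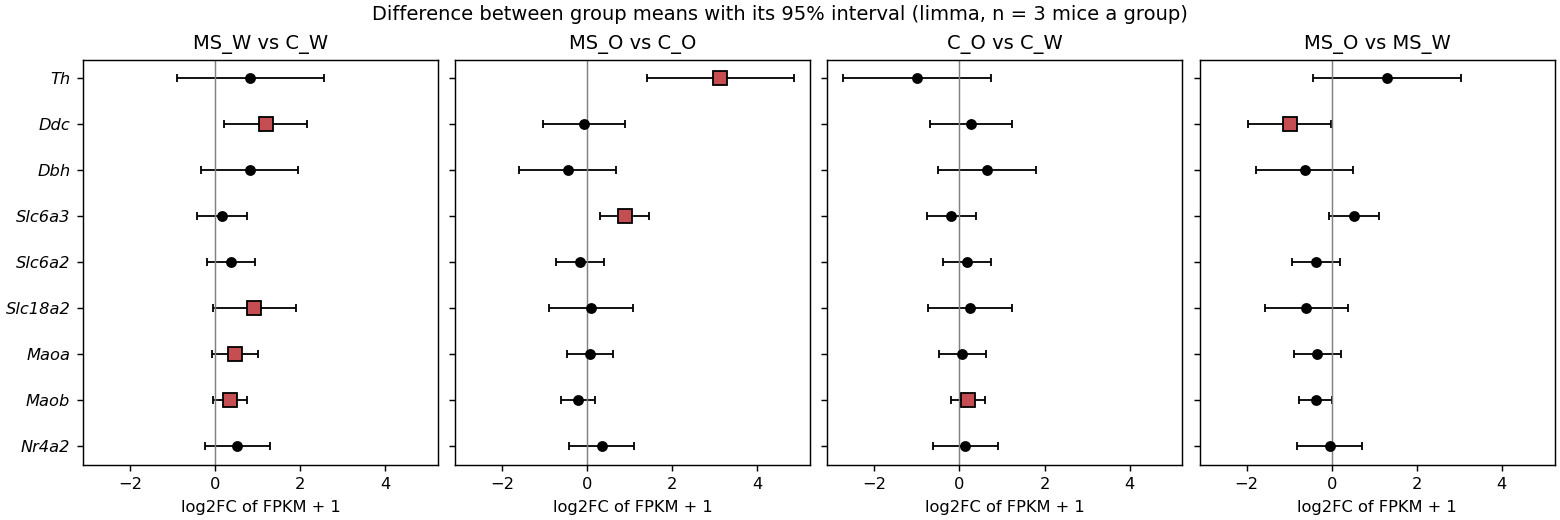
Log2FC (difference between group means of log2(FPKM + 1)) with its 95% interval from limma for the 9 members in 4 comparisons, n = 3 mice per group. Red squares mark members whose groups did not overlap. The intervals of Th and Slc6a3 exclude 0 for MS_O against C_O, that of Ddc excludes 0 for MS_W against C_W and for MS_O against MS_W, and no member passed the adjusted threshold.

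The effect of CUMS on krill oil was assessed by comparing the MS_O and C_O groups, and here Th and Slc6a3 stood out. Th had 12.3 times the mean FPKM of C_O in MS_O and a log2FC of 3.13 (SE 0.781, 95% interval 1.40 to 4.86, adjusted p = 0.479 in limma). For Slc6a3 the log2FC was 0.88 (SE 0.262, 95% interval 0.30 to 1.46, adjusted p = 0.479 in limma). The lowest MS_O brain exceeded the highest C_O brain for both genes, 2 of 9 members, as it did for 8.90% of all tested genes. Both met the criteria of the study, against 3.57% of all tested genes, and both still did so whichever library was left out. No member passed the adjusted threshold in limma, where 0.00467% of genes did, and 2 had an unadjusted p under 0.05, against 8.88%. EdgeR called 0 members after adjustment. DESeq2 called Th, with a log2FC of 3.54 and an adjusted p of 0.00401, when 0.790% of all tested genes passed, and the adjusted p of Th ran from 0.00401 to 0.957 over all alternatives. Without MS_O13, Slc6a3 passed in limma with a log2FC of 1.23 and an adjusted p of 0.0302 (0.0302 to 0.957 over all alternatives). The other 7 members had overlapping groups, and the members' median log2FC was 0.07, against 0.03 for all tested genes. In the 10 libraries, where C_O keeps 2 brains, the log2FC was 3.40 for Th (adjusted p = 0.335 in limma) and 0.85 for Slc6a3 (adjusted p = 0.342), and Th, Ddc, Slc6a3, Slc18a2 and Maoa did not overlap, 5 of 9 members against 18.9% of all tested genes.

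Krill oil without stress gave no call among the members. Comparing C_O with C_W in limma, the log2FC of Th was -0.99 (SE 0.781, 95% interval -2.73 to 0.74, adjusted p = 0.908 in limma), and that of Maob was 0.19 (SE 0.179, adjusted p = 0.908). No member passed the adjusted threshold or the criteria of the study in limma, against 0% and 1.76% of all tested genes, and 0 had an unadjusted p under 0.05, against 3.55%. EdgeR and DESeq2 called 0 members after adjustment, and both placed Dbh past the criteria of the study, which 2.44% of all tested genes met in edgeR and 2.86% in DESeq2. Maob was the 1 member of 9 whose C_O values all lay above those of C_W, against 4.08% of all tested genes. The members' median log2FC was 0.17 in 12 libraries and -0.07 in the 10, so its sign changed without C_O72. In the 10 libraries the log2FC was -1.26 for Th and 0.09 for Maob, and both C_O brains lay below all C_W brains for Ddc and Maoa, 2 of 9 members against 11.0% of all tested genes.

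Krill oil under stress was assessed by comparing MS_O with MS_W. Ddc was lower in every MS_O brain than in every MS_W brain, with a log2FC of -0.99 (SE 0.436, 95% interval -1.96 to -0.02, adjusted p = 0.815 in limma), the 1 member of 9 to do so against 7.66% of all tested genes. The log2FC was 1.303 (SE 0.781, adjusted p = 0.836 in limma) for Th, 0.53 (SE 0.262, adjusted p = 0.826) for Slc6a3 and -0.38 (SE 0.179, adjusted p = 0.819) for Maob, with overlapping groups in each. None passed the adjusted threshold in limma, edgeR or DESeq2, against 0.00467% of all tested genes in limma, and 1 had an unadjusted p under 0.05 in limma, against 6.09%. Ddc met the criteria of the study, which 2.81% of all tested genes did. No member met them when C_W1, C_W64, C_W70, MS_W95, MS_O46 or MS_O78 was left out, and without MS_O13 they were met by Th and Slc6a3 instead. In the 10 libraries the log2FC was -0.55 for Ddc (SE 0.130, adjusted p = 0.229 in limma), 1.02 for Th, 0.43 for Slc6a3 and -0.15 for Maob. Ddc still did not overlap there, and 0 members met the criteria of the study, against 3.36% of all tested genes.

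The interaction asks whether the effect of CUMS differed between krill oil and water. It was 2.30 for Th (SE 1.11, 95% interval -0.15 to 4.75, adjusted p = 0.665 in limma) and -1.26 for Ddc (SE 0.617, 95% interval -2.63 to 0.11, adjusted p = 0.665) on the log2 scale. For Slc6a3 it was 0.71 (SE 0.371, adjusted p = 0.665 in limma) and for Maob -0.57 (SE 0.253, adjusted p = 0.665). No member passed in limma, against 0% of all tested genes, and Maob was the 1 member with an unadjusted p under 0.05, against 7.23% of genes. EdgeR and DESeq2 called 0 members after adjustment, with 5 at an unadjusted p under 0.05 in each, against 8.10% of all tested genes in edgeR and 9.98% in DESeq2. The values for Ddc and Maob were smaller without the libraries that stand out in regional genes. Ddc was at -0.74 without C_O72 and -0.83 without MS_W95, and Maob at -0.34 without MS_W95. The interaction in the 10 libraries was -0.31 for Ddc (SE 0.184, adjusted p = 0.762 in limma), -0.24 for Maob (SE 0.125, adjusted p = 0.728), 2.28 for Th and 0.59 for Slc6a3. A difference in the response to CUMS between krill oil and water was therefore not detected for these genes, although the interval for Th spans values up to 4.75. The comparisons share groups, so that the low Th of C_O enters both C_O against C_W and MS_O against C_O, and the high Ddc of MS_W enters both of its comparisons. An exact two-sided permutation test of 3 mice against 3 cannot give a p below 0.1 and was not used.

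Levels of regional marker genes moved with the members, and their part in the results was not tested. Summed FPKM of 8 olfactory bulb genes was 62.4, 78.1 and 19.8 in the C_W group, 15.7, 37.7 and 17.7 in the C_O group, 96.5, 59.9 and 22.3 in the MS_W group, and 51.1, 238 and 233 in the MS_O group. The 2 brains with the most Th and Slc6a3 were those with the most olfactory bulb signal, and the brain with the least Th, C_O15, had the least. In MS_O against C_O, where Th and Slc6a3 met the criteria of the study, so did 7 of the 8 olfactory bulb genes, all higher, with a median log2FC of 2.29 over the list and 0.03 over all tested genes. Cdhr1, a cadherin-related gene of mitral and tufted cells, was at 86.5 and 83.7 FPKM in MS_O46 and MS_O78 and between 0.498 and 31.4 in the other libraries.

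Of 13 midbrain dopamine neuron identity genes, those named here were chosen after their values were seen. Pitx3, a regulator of these neurons, was at most 0.0431 FPKM in every library and listed at 0.0001 in 9 of the 12. En1, another regulator of midbrain dopamine neurons, was listed at 0.0001 in 10 libraries and was 0.768 in C_O72 and 3.74 in MS_W95. The transcription factor gene Sox6 had signal in every library, from 0.637 to 1.39 FPKM. Ret, a receptor for neurotrophic factors, was 10.6 and 6.66 in C_O72 and MS_W95 and between 0.264 and 1.67 in the others. Slc10a4, a vesicular protein of monoamine and cholinergic neurons, was 4.50, 5.70 and 4.44 in the MS_W group, 6.14 in C_O72 and between 0.0679 and 1.84 in the others. Summed FPKM of all 13 was 31.7 and 47.5 in C_O72 and MS_W95 and between 2.68 and 8.51 in the others. Of these sums, En2 alone made up 6.53 in C_O72 and 23.5 in MS_W95. Not every gene of the list followed the sums. Chrna6 was at most 0.0326 FPKM in the C_O group, though 0.857 in MS_W95. Chrnb3 was at most 0.271 in the MS_W group, against up to 0.508 in the C_W group.

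**Figure D3:**
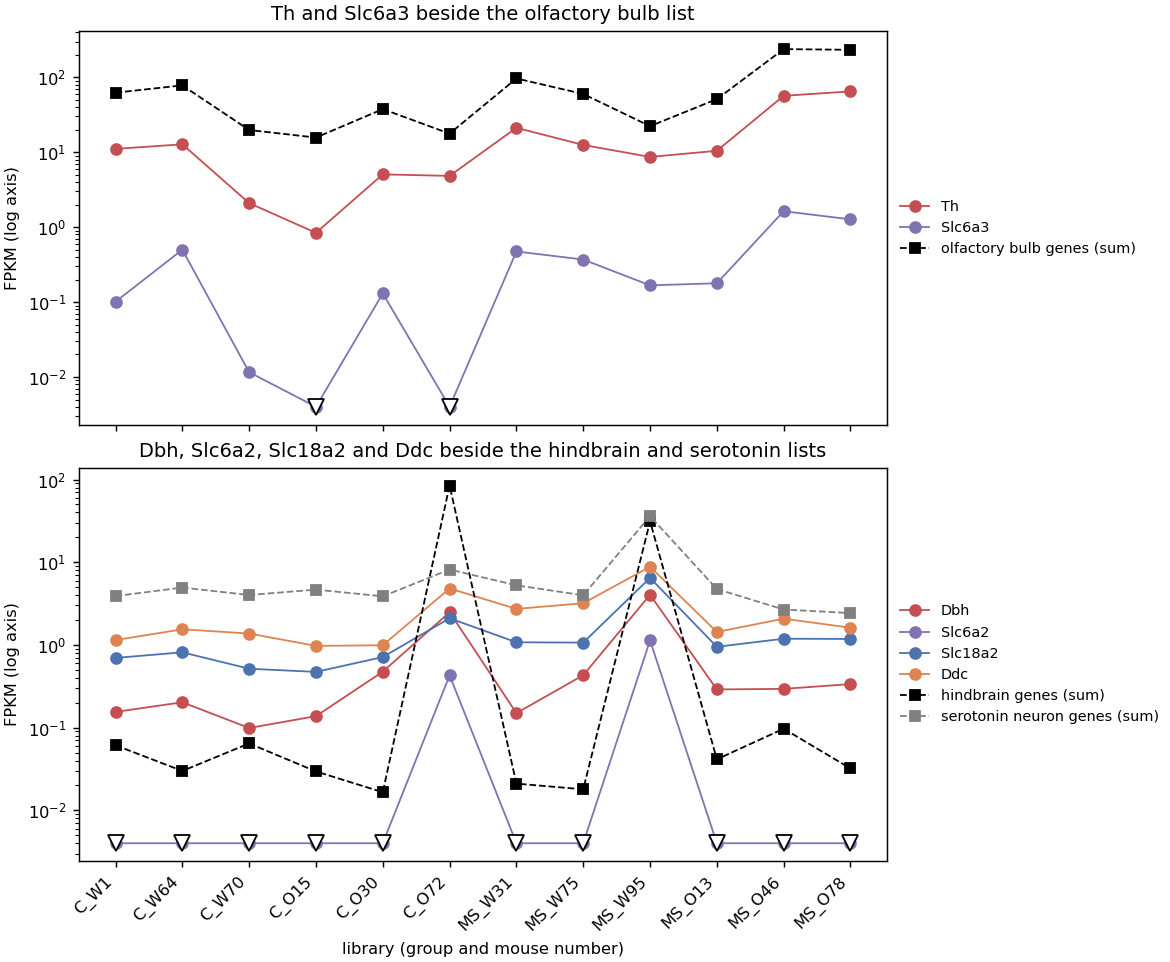
FPKM (log axis) of single members (circles) and summed FPKM of marker lists (squares, dashed) in the 12 libraries, in group order. Open triangles stand for values listed at 0.0001. In the upper panel Th, Slc6a3 and the olfactory bulb list have their maxima in MS_O46 and MS_O78, and in the lower panel Dbh, Slc6a2, Slc18a2, Ddc and the hindbrain list have theirs in C_O72 and MS_W95.

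Among 3 noradrenergic neuron identity genes, Phox2a and Tfap2b had their highest values in the same 2 libraries as Dbh and Slc6a2, and Gal did not follow that pattern. Phox2a, a regulator of noradrenergic neurons, was listed at 0.0001 in 10 libraries and was at 0.161 and 0.288 FPKM in C_O72 and MS_W95. Tfap2b, a further regulator, was at 2.19 and 5.60 in these and at most 0.311 elsewhere. The neuropeptide gene Gal was at 12.1 in C_O72, but 7.46, 6.47 and 7.80 in the MS_W group and 7.74 in MS_O78. Summed FPKM of the 3 genes was 14.5 and 13.7 in C_O72 and MS_W95 and at most 8.05 in the others. Serotonin neurons use Ddc, Slc18a2 and Maoa too, and Tph2, which encodes the first enzyme of serotonin synthesis in the brain, was 3.13 in C_O72 and 20.5 in MS_W95 against at most 0.389 in the others. The summed FPKM of 4 serotonin neuron genes was 8.16 and 36.1 in C_O72 and MS_W95 and between 2.43 and 5.26 elsewhere. Most of the sums elsewhere came from genes other than Tph2, and up to 2 of the 4 genes were listed at 0.0001 there. Among the other 10 libraries, Ddc was highest in MS_W75 and MS_W31, and these had hypothalamus sums (8 genes) of 97.0 and 99.3 FPKM, against 1.14 to 16.5 in the remaining 8. The part of these regional signals in the Ddc values was not tested.

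The genes whose pattern was most like that of a member were found by the SD, over the 12 libraries, of the log2 ratio of their FPKM to that of the member, among 13615 genes whose FPKM averaged 1 or more. For Th, whose own SD was 1.74 on the log2 scale, they were Vipr2 (0.386), Shisa8 (0.491) and Ush1g (0.547). For Slc6a3, with an own SD of 1.38, they were Gcnt1 (0.428), Ush1g (0.504) and Fabp7 (0.512). For Dbh, with an own SD of 1.37, they were Gdf10 (0.369), Gprc5c (0.387) and Cdh15 (0.447). Vipr2, a receptor for the peptides VIP and PACAP, was at 12.4 and 10.5 FPKM in MS_O46 and MS_O78 and at most 3.84 elsewhere, and Gdf10, a growth factor of the TGF-beta family, was at 12.5 and 23.8 in C_O72 and MS_W95 and at most 2.45 elsewhere. The 12 points of each likeness share the libraries named above, and it is given as a description.

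Genes that serve the same pathway around the members were counted in the same fit, and in the 12 libraries none passed the adjusted threshold in any comparison. In the 10 libraries, 1 cofactor gene (Gchfr) and 2 dopamine receptor genes (Drd1 and Drd2) passed it for MS_W against C_W. So did 7 of 7 striatum genes, 4 of 8 hypothalamus genes and 1.15% of all tested genes. Tyrosine hydroxylase needs tetrahydrobiopterin, and 7 genes of its synthesis and recycling were examined. In MS_W against C_W, 2 of the 7 met the criteria of the study, Pcbd1 and Gchfr, both higher, with log2FC of 1.48 and 1.22, against 4.59% of all tested genes, and 3 did not overlap with MS_W higher, against 16.3%. The median log2FC of the list was 0.47, and that of all tested genes 0.06. Pcbd1 recycles the cofactor and Gchfr regulates its synthesis. None met them in MS_O against C_O or in C_O against C_W, against 3.57% and 1.76% of all tested genes. Pcbd1 was past them in the lower direction in MS_O against MS_W, with a log2FC of -1.28, against 2.81% in either direction. The log2FC in MS_W against C_W over the 10 libraries was 1.31 for Pcbd1 (adjusted p = 0.0817 in limma) and 0.61 for Gchfr (adjusted p = 0.0390). There Gchfr also met the criteria in MS_O against C_O, with 0.32, as 683 of 21393 tested genes did in the higher direction. Pcbd1 and Gchfr met them in the lower direction in MS_O against MS_W, with -1.11 and -0.36. Of all tested genes, 3.36% met them there in either direction. Qdpr, which recycles the cofactor, was the most abundant at 38.3 to 129 FPKM, with its highest values in MS_W95 and C_O72. Gch1, the first enzyme of cofactor synthesis, was at 0.665 and 1.15 FPKM in C_O72 and MS_W95 and between 0.173 and 0.550 in the others.

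Of 8 other catecholamine enzymes and carriers, 7 passed the filter on low values. In MS_W against C_W, 2 of the 7 met the criteria of the study, both higher: Slc29a4, a plasma membrane monoamine transporter, with a log2FC of 1.56, and Slc22a3, an extraneuronal monoamine transporter, with 0.42. The share over all tested genes was 4.59%. In MS_O against C_O, 2 met them, against 3.57% of all tested genes, both higher: Slc22a3 with a log2FC of 0.59 and Pnmt, which makes adrenaline, with 0.43. Of the 7, 2 met them in each of these comparisons in the 10 libraries, and 0 in C_O against C_W and in MS_O against MS_W. Of all tested genes there, 5.81% met them in MS_W against C_W, 1.64% in C_O against C_W and 3.36% in MS_O against MS_W. In MS_O against C_O, 683 of 21393 met them in the higher direction and 233 in the lower. In the 12 libraries none met them in C_O against C_W, against 1.76% of all tested genes. Pnmt did in MS_O against MS_W, against 2.81%. Aldh1a1, an aldehyde dehydrogenase known in dopamine neurons and other cells, was at 63.4 and 46.2 FPKM in C_O72 and MS_W95 and between 5.44 and 9.44 elsewhere.

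Of the 5 dopamine receptor genes, 4 passed the filter. Drd2 met the criteria of the study in MS_W against C_W, with a log2FC of 2.35 (adjusted p = 0.358 in limma), against 4.59% of all tested genes, and no receptor met them in the other comparisons of the 12 libraries. With the 10 libraries, 3 receptors met them for MS_W against C_W, against 5.81% of all tested genes, namely Drd2 with a log2FC of 3.32 (adjusted p = 0.0337 in limma), Drd1 with 2.40 (adjusted p = 0.0196) and Drd3 with 0.70 (adjusted p = 0.142). There Drd1 and Drd2 also met them for C_O against C_W, with log2FC of 1.36 and 2.04, against 1.64% of all tested genes. Drd2 met them in the lower direction for MS_O against MS_W, with -1.32, against 3.36%. Its FPKM was 4.35, 0.602 and 1.87 in the C_W group, 9.41, 12.7 and 3.50 in the C_O group, 24.4, 32.2 and 2.90 in MS_W31, MS_W75 and MS_W95, and 21.2, 7.79 and 7.13 in the MS_O group. Drd1, the other main receptor of striatal neurons, was at 15.8, 26.0 and 15.7 FPKM in MS_W31, MS_W75 and MS_O13, and at 0.0807 and 0.144 in C_O72 and MS_W95. The brains with the most dopamine receptor mRNA were not those with the most Th. Summed FPKM of 7 striatum genes ran the same way as the receptors, with 667, 955 and 555 in MS_W31, MS_W75 and MS_O13 and 90.9 to 176 in the C_W group. In the 10 libraries all 7 met the criteria of the study, higher, for MS_W against C_W and for C_O against C_W. In MS_O against MS_W there, 1 of the 7 met them, lower. The part of this regional signal in the receptor values was not tested.

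**Figure D4:**
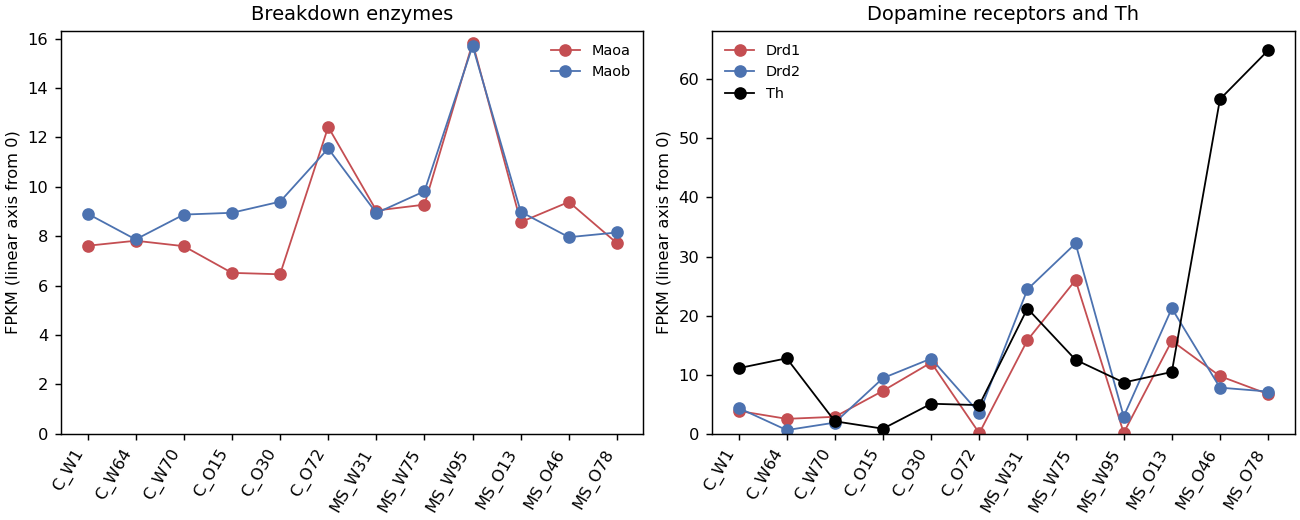
FPKM (linear axes from 0) in the 12 libraries of the breakdown enzymes Maoa and Maob (left) and of Drd1, Drd2 and Th (right). Maoa and Maob peak in C_O72 (12.4 and 11.5) and MS_W95 (15.8 and 15.7), and Th peaks in MS_O46 and MS_O78 while Drd1 and Drd2 peak in MS_W75.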

How the data were processed

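Total RNA from 12 brains was sequenced as strand-specific poly(A) libraries. Per the submitters' processing notes the tools were cutadapt 1.9, HISAT2 2.0.4, StringTie 1.3.4d, edgeR and DESeq2 on genome build mm10, and the study names Ballgown for expression. The authors deposited FPKM and estimated counts for each gene and library. FPKM are relative to a library's total and were not scaled further, so the value of a gene depends on the other RNA in its library. A value of 0.0001 stands for no signal. The estimated counts were derived from coverage and were rounded for edgeR and DESeq2.

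For the main test, log2(FPKM + 1) of the 21393 genes averaging an FPKM of 0.1 or more was fitted with limma 3.58.1 (R 4.3.3; eBayes, trend = TRUE), the 4 groups together, and p was adjusted by Benjamini-Hochberg over all of them. A log2FC on this scale understates the change of low genes. Ratios of mean FPKM were used only for the study's criteria (above 1 on the log2 scale). Samples were grouped by their labels. Each replicate was a separate mouse. Alternatives were a pseudocount of 0.1, no filter, a stricter filter (mean FPKM 1), quantile normalization, median centring, fits of 2 groups, array weights, edgeR 4.0.16 (quasi-likelihood, TMM), DESeq2 1.42.0, each library left out and 10 libraries. The tests were also run on simulated data in which each gene varied independently. Those data lack regional differences between libraries, so they do not show how the tests behave on these libraries.

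The members, the gene lists and the 10-library alternative were chosen with earlier results of these data known. All members were named, with up to 3 genes of a list by mean FPKM and the 3 genes most like Th, Slc6a3 and Dbh (on log2(FPKM + 0.1)). Gch1, Slc29a4, Slc22a3, Pnmt, Aldh1a1, Pitx3, En1, Sox6, Chrna6, Chrnb3, Gchfr and Phox2a were named after their values were seen. Genes left out of 2 of the lists are not reported here. Promoters came from RefSeq (GRCm38.p6). Gene coordinates were those of the authors' table on GRCm38 and matched GENCODE release M21 for all 9 members. Figures were made with Python 3.11.15 and matplotlib 3.10.9. Columns of other samples numbered 0.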

Additional observations from a re-analysis of the deposited data

How the results depend on the processing

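The direction of the 20 member log2FC values given with a test was kept in 191 values under other settings and in 240 values without 1 library. Of these, 3 moved past the adjusted threshold, namely Th in DESeq2 for MS_O against C_O (log2FC 3.54, where 1 member passed), Slc6a3 without MS_O13 for the same comparison (1.23), and Ddc in the 10 libraries for MS_W against C_W (0.75, where 1 member passed). Some member log2FC values outside the 20 changed direction in the 10 libraries. For C_O against C_W, Ddc went from 0.27 to -0.24, Slc18a2 from 0.25 to -0.07 and Maoa from 0.07 to -0.21. For MS_O against C_O, Ddc went from -0.07 to 0.44 and Dbh from -0.46 to 0.01. For MS_O against MS_W, Slc18a2 went from -0.59 to 0.02 and Dbh from -0.63 to 0.03. In the interaction, Slc18a2 went from -0.84 to 0.095 and Maoa from -0.40 to 0.12. Leaving out 1 library moved the number past the adjusted threshold from 0 to 1 for MS_O against C_O and in no other comparison. The number of members past the study's criteria was 0 to 3 for MS_W against C_W, 0 to 2 for MS_O against MS_W, 2 for MS_O against C_O and 0 for C_O against C_W when 1 library was left out. For MS_W against C_W it was 3 in edgeR and 3 in DESeq2 (Ddc, Dbh and Slc18a2), and for C_O against C_W 1 in edgeR and 1 in DESeq2 (Dbh). For MS_O against MS_W it was 0 without a filter on low values, 2 with array weights (Ddc and Slc6a3), 3 in DESeq2 (Th, Ddc and Dbh) and 0 in the 10 libraries. For MS_O against C_O it was 1 with a mean FPKM of at least 1, because Slc6a3 was then not tested. The cause was not tested for the others. DESeq2 called 396 genes after adjustment for MS_W against C_W and 169 for MS_O against C_O, where limma and edgeR called 1 each. Slc6a2 was listed at 0.0001 in all of the 10 libraries and has no value there. No paired analysis was possible because the mouse numbers in the labels are not shared between groups. At an FPKM below 1, as for Dbh, Slc6a3 and Slc6a2, values rest on few fragments.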

Other observations

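Glial and ependymal genes gave a further view of the libraries in which Maob, known from astrocytes as well as from serotonin and histamine neurons, was highest. Summed FPKM of 6 astrocyte genes was 272 in C_O72 and 216 in MS_W95 and between 184 and 220 in the other 10 libraries, so that it was highest in C_O72 but not in MS_W95, where Maob peaked. Summed FPKM of 4 ependymal genes was 23.4 and 29.8 in these libraries and between 3.07 and 9.60 in the others. Hdc, which makes histamine, was at 0.591 and 0.944 FPKM in C_O72 and MS_W95 and at most 0.242 in the others. Hrh3, a histamine receptor gene, was at 9.11 and 5.71 FPKM in C_O72 and MS_W95 and between 23.9 and 36.7 elsewhere. The sums of these 2 genes were mostly Hrh3, and so were lowest in C_O72 and MS_W95, where Hdc was highest.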
